A study of Oryza sativa Japonica Group with 8 samples.

Results

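The light by genotype interaction compared the response of rice (Oryza sativa, cultivar Nipponbare) seedlings to red light in plants carrying an active phytochrome B allele with the same response in wild type. It was computed for every probe set as the log2 difference between red light and darkness in Ubi::OsYHB seedlings minus the log2 difference between red light and darkness in wild type (WT). All 8 arrays of the series entered, 2 in each of 4 groups. OsYHB is a constitutively active allele of the rice phytochrome B gene, here driven by the maize Ubiquitin promoter in the Nipponbare background. The groups were OsYHB grown for 5 days at 28 °C in continuous red light of 50 µmol m-2 s-1 (OsYHB red), OsYHB grown for 5 days at 28 °C in darkness (OsYHB dark), WT in the same red light (WT red) and WT in darkness (WT dark). The OsYHB plants came from 2 independent homozygous lines, each with a single insertion. In both OsYHB groups replicate 1 was transgenic line 1, labelled as a 41-fold overexpresser, and replicate 2 was line 9, labelled as a 23-fold overexpresser, so their replicate spread also holds the difference between lines. The above-ground tissue was taken in the subjective morning, under red light for the red groups and dim green light for the dark groups. A negative interaction means that the change in red light was lower (less positive or more negative) in OsYHB than in WT, and a positive interaction the reverse.

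Phytochromes are plant photoreceptors that red light converts to an active form and far-red light or slow reversion in darkness returns to the inactive form. Active phytochrome enters the nucleus, removes repressors of light responses and shifts a seedling away from the dark-grown habit, in which the shoot elongates and the chloroplast is not built, towards greening and leaf development. Rice has phytochromes A, B and C. The YHB class of alleles, first described in Arabidopsis, signals without light. An interaction of 0 means, by definition, that the effects of light and allele add on the log2 scale.

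The arrays were close to each other in scale, with a median intensity of 20.4 to 20.9, and replicate arrays correlated at 0.992 to 0.996 across probe sets. A reporter probe set of the array (RPTR-Os-K01193-1_at) had log2 intensities of 12.90 to 13.26 on the 4 OsYHB arrays and 2.85 to 3.02 on the 4 WT arrays, which matches the genotype labels. The PHYB probe set did not follow the labelled overexpression, with log2 intensities of 9.63 to 10.04 in OsYHB and 9.83 to 10.38 in WT. Whether it lies within the transgene was not tested. Of the 5 root markers measured, none was called in the interaction, and 3 were below the array median in each group except WT dark, where 2 were. OsCASPL1D1, whose name fits the pattern of this list, was not among the 5, and it was called positive, at an interaction of 3.52. The summed intensity of the 5 root markers was 553 to 554 in OsYHB red, 660 to 734 in OsYHB dark, 591 to 594 in WT red and 744 to 1060 in WT dark. Lsi1 was the brightest of the 5 in every group, above the array median, and so weighed most in these sums. Its mean log2 intensity was 8.89 in OsYHB red, 9.24 in OsYHB dark, 8.97 in WT red and 9.62 in WT dark. The 12 markers of seed storage and the late embryo summed to 1380 to 1630 in OsYHB red, 1500 to 1540 in OsYHB dark, 1290 to 1560 in WT red and 1830 to 2320 in WT dark. The brightest of the 12 was GLB, except in WT dark, where it was PXG (9.86), itself called in the interaction. Both marker sums were thus highest in WT dark, the group that most often lay apart in the interaction, and their part in the results was not tested. The genes of the photosynthetic light reactions, as leaf markers, were all above the array median in each group. In whole shoots, fewer cells of a type and less RNA per cell cannot be told apart.

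The interaction was called for 2414 of 57258 probe sets (4.22%) at an adjusted p below 0.05 in limma. It was positive for 878 of them (1.53% of those tested) and negative for 1536 (2.68%). Represented by its brightest probe set, a gene was called in 1402 of 17905 cases (7.83%), with 513 positive (2.87%) and 889 negative (4.97%). The median interaction of all 17905 genes was 0.16, and that of the called genes was 1.24 for the positive and -1.48 for the negative ones. Red light against darkness was called for 6 probe sets in OsYHB (0.0105%, 3 genes, 0.0168%) and for 5570 in WT (9.73%). At an unadjusted p below 0.05 in limma there were 8365 probe sets in OsYHB and 13415 in WT. The number of calls depended on single arrays, with 809 without WT red replicate 2, 979 without OsYHB dark replicate 2, 1130 without OsYHB red replicate 2, 1258 without OsYHB red replicate 1 and 3304 without WT dark replicate 2. The gene counts above use p-values adjusted over all probe sets. Testing 1 probe set per gene called 1969 genes, 905 positive and 1064 negative (46% positive). The share of positive calls, 36.4% over probe sets, was 48.3% on log2(intensity + 16) and 49.2% on log2(intensity + 64). These offsets shrink the interaction of genes with a dim group: that of OSH1, a homeobox gene, was 2.81 and 1.57 with them, against 4.4 without.

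In most called genes the response to red light was large in WT and small in OsYHB. Among the 2944 probe sets higher in WT red than in WT dark (5.14% of those tested), the median response was 0.01 in OsYHB (interquartile range -0.17 to 0.27) and 1.02 in WT. The 2626 probe sets lower in WT red (4.59%) had median responses of -0.08 in OsYHB (-0.29 to 0.10) and -0.78 in WT. Only 10.2% of the probe sets that light raised in WT, and 14.3% of those it lowered, reached 50% of the WT response in OsYHB. These probe sets were chosen by their WT response, which favours large values in WT but not in OsYHB. Of the 1402 called genes, 1002 (71.5%, against 50.8% of all genes) had responses of opposite sign in the 2 genotypes, and in 393 the OsYHB response had the WT sign but was under 50% of its size. The call rests on the difference between the responses, which favours opposite signs, and among the 3064 genes called in WT light the share was 46.0%. The remaining 7 genes comprised 1 with an OsYHB response of over 50% of that in WT and 6 with a larger response than in WT. The responses of the 2 genotypes, which share no arrays, correlated at 0.215 over all probe sets and at 0.378 over those called in WT, as a description.

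**Figure D1:**
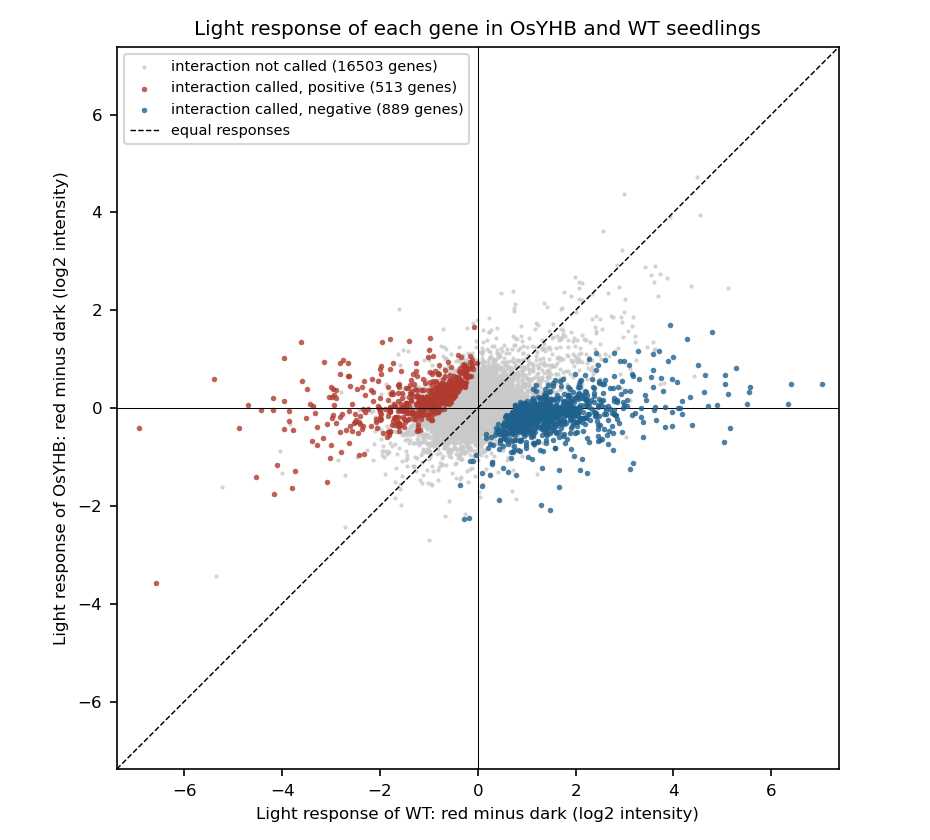
Light response (red minus dark, log2 intensity) of each of 17905 genes in OsYHB on the vertical axis and in WT on the horizontal axis, with the 513 genes of positive and the 889 of negative interaction coloured and a dashed diagonal where the responses would be equal. The genes of negative interaction have median responses of -0.14 in OsYHB and 1.32 in WT, and those of positive interaction 0.22 in OsYHB and -1.06 in WT.

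The called genes shared a second feature, a difference between the genotypes in darkness. Of the 889 genes with a negative interaction, 830 (93.4%) were also called higher in WT red than WT dark and higher in OsYHB dark than WT dark. Of the 513 with a positive interaction, 423 (82.5%) were called lower in both of these comparisons. Over all genes, 8.98% were called higher and 8.13% lower in WT red than WT dark, and 10.7% were called higher and 17.3% lower in OsYHB dark than WT dark. Both comparisons use the WT dark arrays, as does the interaction, so the counts are not independent of each other. The 2 WT dark arrays lay apart from the other 6, above or below all of them, in 2270 of the 2414 called probe sets (94.0%, against 27.6% of all probe sets). The OsYHB dark arrays lay apart in 916 (37.9%, against 18.3%), the WT red arrays in 208 (8.62%, against 7.33%) and the OsYHB red arrays in 169 (7.0%, against 9.96%). OsYHB against WT was called for 11 probe sets in red light (0.0192%) and for 9715 in darkness (17.0%). At an unadjusted p below 0.05 in limma there were 4353 in red light and 18163 in darkness.

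Genes of the photosynthetic apparatus had the lowest median interaction of the lists, at -1.11. Of 10 genes of the photosynthetic light reactions, 6 were called negative (60.0%, against 4.97% of all genes) and none positive. The list's median response was 0.12 in OsYHB and 1.26 in WT, against 0.05 and -0.10 for all genes. RCABP69, a chlorophyll a/b-binding protein of the light-harvesting complexes, had log2 intensities of 13.01 and 13.09 in OsYHB red, 12.88 and 13.04 in OsYHB dark, 13.04 and 13.05 in WT red and 10.46 and 11.07 in WT dark. The 6 arrays other than WT dark spanned 12.88 to 13.09 and the WT dark arrays were lower, giving light responses of 0.1 in OsYHB and 2.28 in WT and an interaction of -2.19 ± 0.27 (SE, adjusted p = 0.00398). LFNR1, a leaf ferredoxin-NADP reductase that passes electrons from photosystem I to NADP, had log2 intensities of 12.57 and 12.5 in OsYHB red, 12.59 and 12.72 in OsYHB dark, 12.36 and 12.34 in WT red and 10.34 and 10.57 in WT dark. Its interaction was -2.02 ± 0.18 (SE, adjusted p = 0.0012). The NDH complex subunit gene ndhM, whose complex carries cyclic electron flow, had an interaction of -1.68 ± 0.22 (SE, adjusted p = 0.00542). PSAH, a photosystem I subunit, had an interaction of -1.60, RCABP89 of -1.21 and CAB2R, another chlorophyll a/b-binding protein, of -1.01. The summed intensity of the 10 genes was 63800 to 65900 in OsYHB red, 58300 to 63500 in OsYHB dark, 66000 to 66300 in WT red and 26600 to 29500 in WT dark, so that the OsYHB dark and WT red ranges did not overlap with WT dark. Leaving out single arrays ended the call of CAB2R (4 arrays, 0.0518 to 0.0748), in adjusted p, and of no other gene named for this list under the naming rule.

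The list of carbon fixation and photorespiration had a median interaction of -0.49, with 5 of 12 genes called, all negative (41.7%, against 4.97% of all genes). CFBP1, a fructose-1,6-bisphosphatase of sucrose synthesis, had log2 intensities of 11.44 and 11.29 in OsYHB red, 11.25 and 11.45 in OsYHB dark, 11.28 and 11.12 in WT red and 7.07 and 7.07 in WT dark. Its light response was 0.01 in OsYHB and 4.13 in WT, and its interaction was -4.12 ± 0.18 (SE, adjusted p = 0.000249). GLO5 and GLO1, glycolate oxidases of the photorespiratory pathway, had interactions of -2.98 ± 0.21 (SE, adjusted p = 0.000611) and -2.39 ± 0.21 (SE, adjusted p = 0.00121). GLO5 had log2 intensities of 11.96 and 11.82 in OsYHB red, 11.95 and 12.13 in OsYHB dark, 11.56 and 11.66 in WT red and 8.61 and 8.96 in WT dark. This again placed the WT dark arrays below the rest. A second probe set of GLO1 gave 0.07. GDCSH, the H protein of glycine decarboxylase in the same pathway, had an interaction of -1.52, and rca, the activase of Rubisco, of -1.34. The call of rca was lost without WT red replicate 2, at an adjusted p of 0.0505. APX8, an ascorbate peroxidase of the chloroplast, had log2 intensities of 11.4 and 11.28 in OsYHB red, 11.53 and 11.7 in OsYHB dark, 11.21 and 11.44 in WT red and 10.07 and 9.69 in WT dark. Its interaction was -1.72 ± 0.22 (SE, adjusted p = 0.00537).

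**Figure D2:**
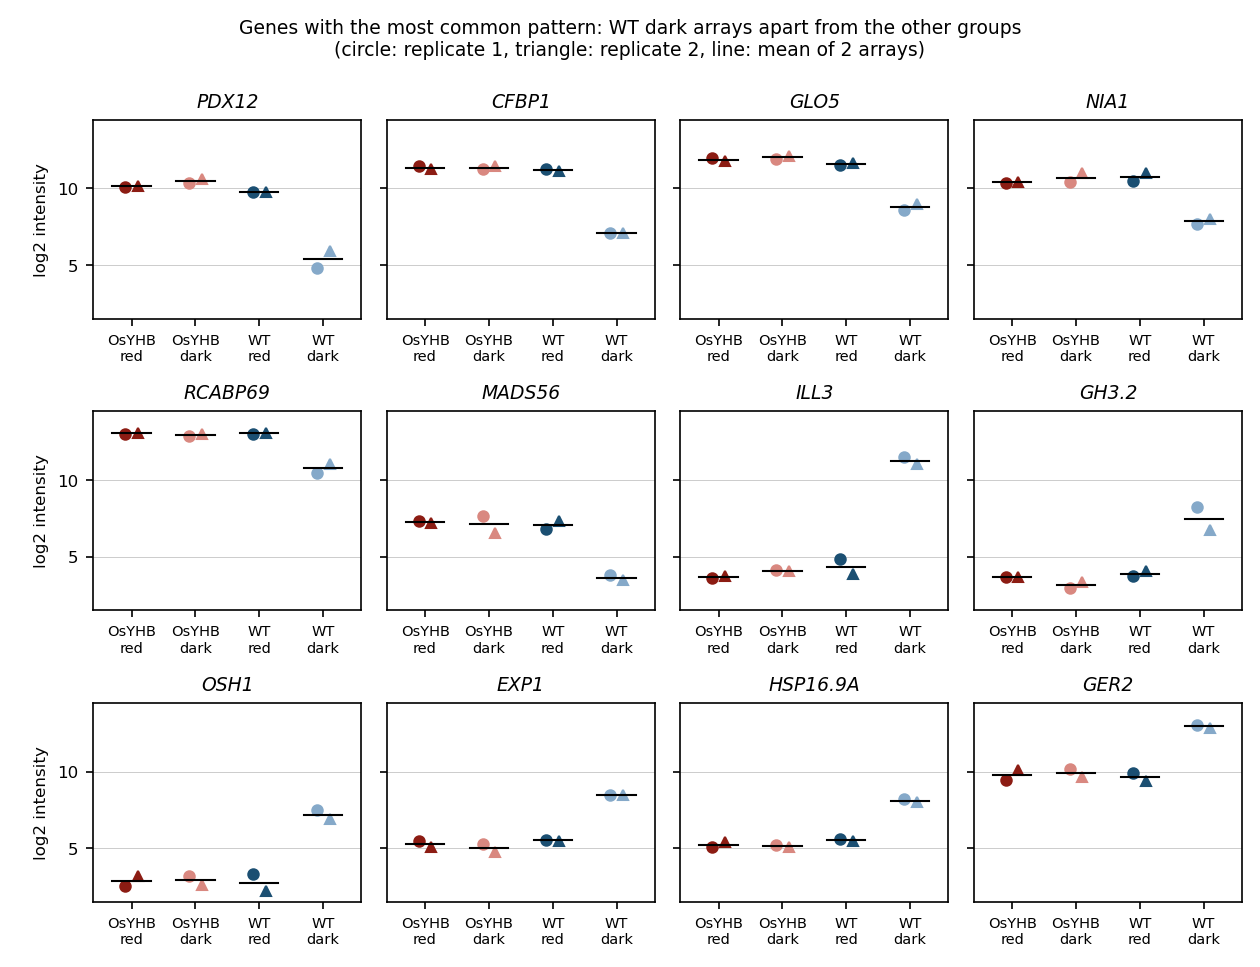
Log2 intensity on each of the 8 arrays for genes with the most common pattern, each gene in its own panel, with groups from left to right OsYHB red, OsYHB dark, WT red and WT dark, circles for replicate 1, triangles for replicate 2 and short lines for group means. The WT dark points stand below the other groups in the genes of negative interaction, such as CFBP1, and above them in the genes of positive interaction, such as ILL3.

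The calls in the 3 pigment lists were all negative, and 4.97% of all genes were called negative. Of 11 chlorophyll synthesis genes 2 were called, both negative (18.2%), and the list's median response was 0.10 in OsYHB and 0.57 in WT. CHLH, the large subunit of magnesium chelatase at the branch from haem to chlorophyll, had log2 intensities of 11.63 and 11.76 in OsYHB red, 11.21 and 11.68 in OsYHB dark, 12.12 and 12.08 in WT red and 10.11 and 9.8 in WT dark. Its interaction was -1.9 ± 0.25 (SE, adjusted p = 0.00541). GluTR, glutamyl-tRNA reductase at the committed step of tetrapyrrole synthesis, had log2 intensities of 11.88 and 11.93 in OsYHB red, 11.87 and 12.02 in OsYHB dark, 12.12 and 12.22 in WT red and 10.9 and 10.55 in WT dark. Its interaction was -1.48 ± 0.2 (SE, adjusted p = 0.00635). A second CHLH probe set, dimmer than this, gave 0.71. Of 5 genes on the chlorophyll breakdown list 2 were called, both negative (40.0%). They were NYC1, a chlorophyll b reductase, with an interaction of -1.03 ± 0.17 (SE, adjusted p = 0.0159), and Lls1 with an interaction of -1.77 ± 0.2 (SE, adjusted p = 0.00322). The locus of Lls1 also carries the name CAO in RefSeq, which belongs to a different enzyme, so no function is assigned here. Its place on the breakdown list rests on its names alone, and without it NYC1 was the only call of that list.

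Among 10 carotenoid and plastid isoprenoid genes 3 were called, all negative (30.0%). PSY2 and PSY1, phytoene synthases that set the rate of carotenoid synthesis, had interactions of -2.24 ± 0.2 (SE, adjusted p = 0.0012) and -1.38 ± 0.21 (SE, adjusted p = 0.0115). PSY2 had log2 intensities of 10.92 and 10.87 in OsYHB red, 10.94 and 11.04 in OsYHB dark, 10.54 and 10.67 in WT red and 8.29 and 8.63 in WT dark. Its light responses were -0.09 in OsYHB and 2.15 in WT, and the WT dark arrays lay below all others. CLA1, a 1-deoxyxylulose 5-phosphate synthase that feeds the plastid isoprenoid pathway, had an interaction of -1.14 ± 0.22 (SE, adjusted p = 0.0258). Leaving out single arrays ended the calls, in adjusted p, of NYC1 (5 arrays, 0.0567 to 0.0826), CLA1 (6 arrays, 0.0549 to 0.128) and PSY1 (OsYHB red replicate 2 or OsYHB dark replicate 2 or WT red replicate 2, 0.0519 to 0.0618).

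**Figure D3:**
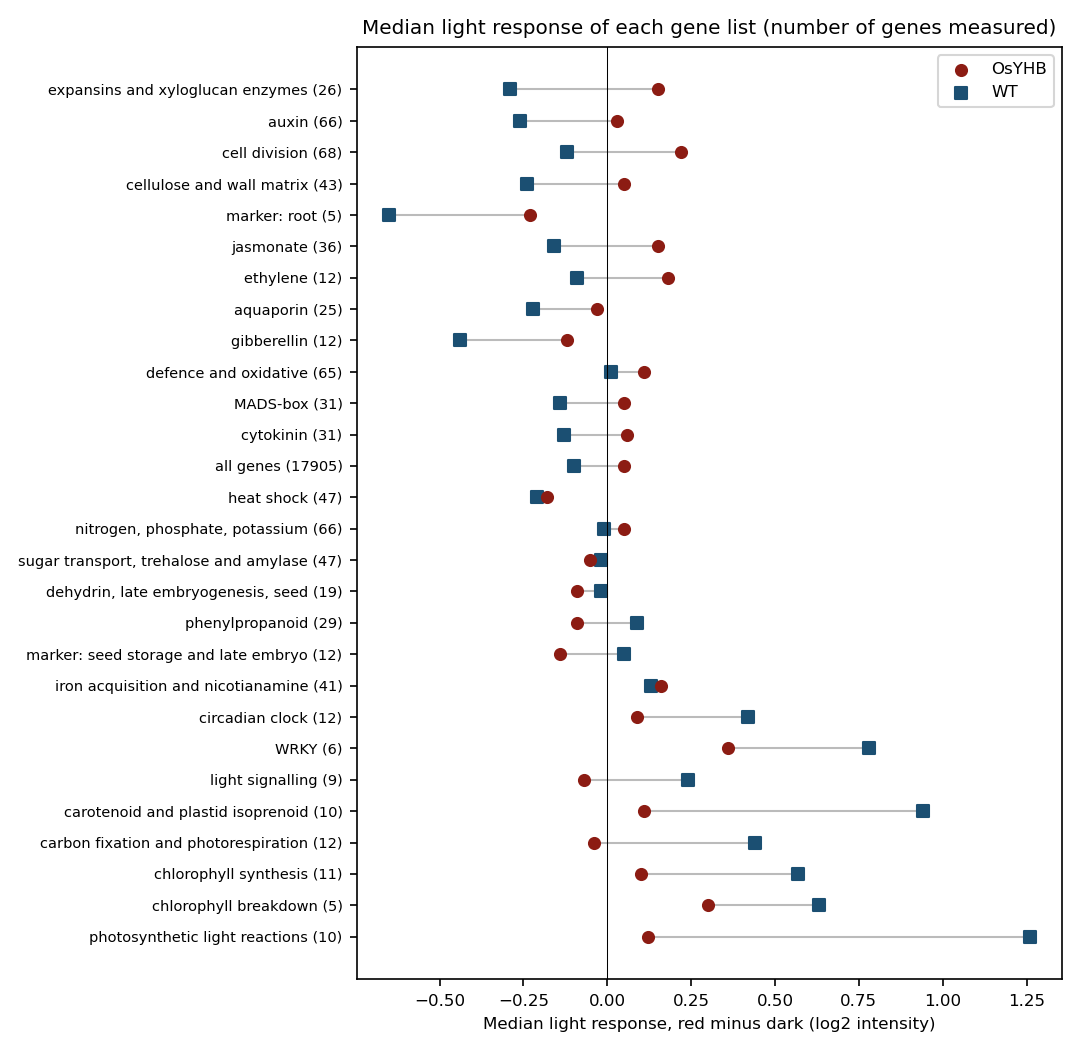
Median light response (red minus dark, log2 intensity) of the genes of each list, with the number of genes measured in brackets, for OsYHB (circles) and WT (squares), ordered by the median interaction. The OsYHB medians lie between -0.23 and 0.36, while the WT medians reach 1.26 for photosynthetic light reactions and -0.65 for the root markers.

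Photoreceptor genes took both signs. Of 9 light signalling genes 1 was called positive and 2 negative (33.3%, against 7.83% of all genes). PHYA, the far-red receptor that is abundant in dark-grown tissue and that active phytochrome represses, had log2 intensities of 10.08 and 10.13 in OsYHB red, 10.25 and 10.16 in OsYHB dark, 10.42 and 10.47 in WT red and 11.79 and 11.48 in WT dark. The 4 OsYHB arrays spanned 10.08 to 10.25 and lay below the WT red arrays and further below the WT dark arrays, and the interaction was 1.09 ± 0.19 (SE, adjusted p = 0.0173). PHYC had an interaction of 0.15 ± 0.17 (SE, adjusted p = 0.687) and PHYB of 0.15 ± 0.28 (SE, adjusted p = 0.815), neither called. CRYD, a cryptochrome of the DASH class, was highest in OsYHB dark, with log2 intensities of 7.46 and 7.51 in OsYHB red, 8.22 and 8.52 in OsYHB dark, 6.78 and 6.69 in WT red and 6.12 and 5.98 in WT dark. Its light response was -0.89 (adjusted p = 0.0902) in OsYHB and 0.68 (adjusted p = 0.0156) in WT, and its interaction was -1.57 ± 0.19 (SE, adjusted p = 0.00396). PHOT2, a phototropin receptor of blue light, had an interaction of -1.13 ± 0.19 (SE, adjusted p = 0.016). Of 12 clock and heading-date genes 2 were called negative (16.7%, against 4.97% of all genes). They were the flowering repressor DTH8 with an interaction of -1.02 ± 0.22 (SE, adjusted p = 0.0399) and the pseudo-response regulator PRR37 with an interaction of -0.74 ± 0.17 (SE, adjusted p = 0.0492). Among 31 MADS-box genes 1 was positive and 2 negative (9.68%, near the 7.83% of all genes). MADS56 and MADS50, relatives of the flowering activator SOC1, had interactions of -3.27 ± 0.45 (SE, adjusted p = 0.00693) and -1.07 ± 0.2 (SE, adjusted p = 0.0245). MADS56 had log2 intensities of 7.35 and 7.2 in OsYHB red, 7.66 and 6.56 in OsYHB dark, 6.83 and 7.3 in WT red and 3.78 and 3.49 in WT dark. MADS2, a floral organ identity gene, had an interaction of 1.55 ± 0.3 (SE, adjusted p = 0.0279). In adjusted p, single arrays decided the calls of PHYA (5 arrays, 0.0591 to 0.0805), PHOT2 (5 arrays, 0.0507 to 0.088), DTH8 (6 arrays, 0.0725 to 0.17, and 0.0639 with line as a block), PRR37 (8 arrays, 0.0667 to 0.191, and 0.0726 with line as a block), MADS50 (6 arrays, 0.0527 to 0.123) and MADS2 (5 arrays, 0.0525 to 0.129).

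Several of the largest negative interactions among genes with a name lay in vitamin synthesis and other metabolism. PDX12, of the vitamin B6 synthesis family, had log2 intensities of 10.12 and 10.18 in OsYHB red, 10.38 and 10.6 in OsYHB dark, 9.74 and 9.77 in WT red and 4.83 and 5.9 in WT dark. Its light responses were -0.34 in OsYHB and 4.39 in WT, and its interaction was -4.73 ± 0.41 (SE, adjusted p = 0.00117). The 6 other arrays spanned 9.74 to 10.60, all above both WT dark arrays. RIBA3, of riboflavin synthesis, had log2 intensities of 9.28 and 9.15 in OsYHB red, 9.69 and 10.07 in OsYHB dark, 9.17 and 9.24 in WT red and 6.67 and 6.73 in WT dark. Its interaction was -3.17 ± 0.21 (SE, adjusted p = 0.000427). BGLU22, a beta-glucosidase, was near 3.2 in WT dark, below the array median, and had an interaction of -3.99 ± 0.51 (SE, adjusted p = 0.00478). CIPK5, a kinase that calcium sensors of the CBL family activate, was highest in OsYHB dark, at log2 intensities of 8.67 and 8.82 in OsYHB red, 9.5 and 10.43 in OsYHB dark, 9.15 and 9.04 in WT red and 7.87 and 7.68 in WT dark. Its response was -1.22 in OsYHB and 1.32 in WT, of which the WT one alone was called, and its interaction was -2.54 ± 0.37 (SE, adjusted p = 0.0084). MSRB1, a methionine sulfoxide reductase that repairs oxidised proteins, had an interaction of -2.42 ± 0.28 (SE, adjusted p = 0.0032).

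Of 66 genes of nitrogen, phosphate and potassium uptake and assimilation 4 were called, all negative, a share of 6.06% near the 4.97% of all genes called negative. None was called positive, and the list's median interaction of 0.09 was close to the 0.16 of all genes. NIA1, a nitrate reductase, had log2 intensities of 10.35 and 10.45 in OsYHB red, 10.41 and 11.01 in OsYHB dark, 10.46 and 11.04 in WT red and 7.7 and 8.03 in WT dark. Its interaction was -3.2 ± 0.35 (SE, adjusted p = 0.0025). Fd-GOGAT, the ferredoxin-dependent glutamate synthase of chloroplasts, had log2 intensities of 12.51 and 12.42 in OsYHB red, 12.48 and 12.72 in OsYHB dark, 12.3 and 12.46 in WT red and 10.39 and 10.74 in WT dark. Its interaction was -1.95 ± 0.22 (SE, adjusted p = 0.00274). GLN2, the plastid glutamine synthetase that works in series with it, had an interaction of -1.20. AMT2-1, an ammonium transporter, had an interaction of -2.15 ± 0.21 (SE, adjusted p = 0.00173).

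Sugar genes and aquaporins held small numbers of calls. Of 47 genes of sugar transport, trehalose and amylase 5 were called, all negative (10.6%, against 4.97% of all genes), with a list median of 0.02. CIN4, a cell wall invertase that splits sucrose, had an interaction of -1.65 ± 0.26 (SE, adjusted p = 0.0116). The sugar transporter SWEET2B had an interaction of -1.28 ± 0.24 (SE, adjusted p = 0.0246), with responses of 1.0 in OsYHB and 2.27 in WT. SWEET1B and SWEET16 had interactions of -0.94 and -1.19, and their calls were not followed in the fits that left out single arrays. The fifth gene, AMY3D, is given with the OsYHB dark pattern. Of 25 aquaporin genes 1 was called in each direction (8.0%, near the 7.83% of all genes). PIP2-7, a plasma membrane water channel, had log2 intensities of 10.99 and 10.98 in OsYHB red, 11.14 and 11.29 in OsYHB dark, 10.34 and 10.82 in WT red and 7.24 and 8.22 in WT dark. Its interaction was -3.08 ± 0.41 (SE, adjusted p = 0.00587). TIP1, a channel of the vacuole membrane, had an interaction of 2.23 ± 0.51 (SE, adjusted p = 0.0497). In adjusted p, the calls of CIN4 (OsYHB red replicate 2 or OsYHB dark replicate 2, 0.0501 to 0.0597), SWEET2B (5 arrays, 0.0639 to 0.0893) and TIP1 (6 arrays, 0.0749 to 0.161) were lost without single arrays.

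Auxin genes held the most positive calls of the lists. Of 66 measured, 13 were called positive (19.7%, against 2.87% of all genes) and none negative, with a median response of 0.03 in OsYHB and -0.26 in WT. ILL3, of the family of enzymes that free auxin from its amino acid conjugates, had the largest interaction of any named gene, with log2 intensities of 3.64 and 3.74 in OsYHB red, 4.12 and 4.07 in OsYHB dark, 4.84 and 3.87 in WT red and 11.53 and 11.03 in WT dark. The 6 other arrays spanned 3.64 to 4.84, its responses were -0.4 in OsYHB and -6.93 in WT, and its interaction was 6.53 ± 0.41 (SE, adjusted p = 0.000357). GH3.2, an enzyme that attaches amino acids to auxin, had log2 intensities of 3.7 and 3.67 in OsYHB red, 2.93 and 3.32 in OsYHB dark, 3.72 and 4.08 in WT red and 8.24 and 6.75 in WT dark. Its interaction was 4.16 ± 0.57 (SE, adjusted p = 0.00653), and with log2(intensity + 64) it was 1.75 (adjusted p = 0.135), no longer called. The Aux/IAA repressors gave 9 of the 13 calls, led by IAA20 with log2 intensities of 4.39 and 4.45 in OsYHB red, 4.16 and 3.8 in OsYHB dark, 4.86 and 4.75 in WT red and 7.38 and 6.97 in WT dark. Its interaction was 2.81 ± 0.25 (SE, adjusted p = 0.0012). The interactions of the other 8 were IAA9 at 2.06, IAA18 at 1.88, IAA12 at 1.63, IAA31 at 1.51, IAA13 at 1.33, IAA30 at 1.02, IAA14 at 1.01 and IAA24 at 0.81. ARF16, a transcription factor that Aux/IAA proteins bind, had an interaction of 1.07, and PIN3A, an auxin efflux carrier, had an interaction of 0.93.

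The other hormone lists had few calls. Of 36 jasmonate genes 3 were positive, none negative (8.33%, against 2.87% of all genes called positive). Of 12 ethylene genes 1 was positive, none negative (also 8.33%). The share called among 31 cytokinin genes, in both directions, was 9.68%, near the 7.83% of all genes. AOS4, an allene oxide synthase of jasmonate synthesis, had log2 intensities of 5.89 and 5.65 in OsYHB red, 7.51 and 7.3 in OsYHB dark, 7.85 and 7.04 in WT red and 11.32 and 11.15 in WT dark. Its responses were -1.64 in OsYHB and -3.79 in WT. The response was thus negative in both genotypes, though its adjusted p was 0.0873 in OsYHB, and the interaction was 2.15 ± 0.34 (SE, adjusted p = 0.0119). OPR5, of the oxophytodienoate reductase family, had an interaction of 2.78 ± 0.59 (SE, adjusted p = 0.0377), and the repressor JAZ3 had an interaction of 1.14 ± 0.21 (SE, adjusted p = 0.0251). ACO1, an enzyme that makes ethylene, was the 1 call among 12 ethylene genes, with an interaction of 1.46 ± 0.24 (SE, adjusted p = 0.0144). None of 12 gibberellin genes was called, and the largest interaction was that of the gibberellin synthesis gene GA20OX2, at 1.28 ± 0.39 (SE, adjusted p = 0.117). Of 31 cytokinin genes, CKX5, which degrades cytokinin, and LOGL10, of the family that activates it, were positive at interactions of 1.34 ± 0.26 (SE, adjusted p = 0.0296) and 1.47 ± 0.25 (SE, adjusted p = 0.0161), while LOG, of the same family as LOGL10, was negative at an interaction of -1.45 ± 0.24 (SE, adjusted p = 0.014). The calls that single arrays ended, in adjusted p, were those of AOS4 (OsYHB dark replicate 2, 0.0634), OPR5 (6 arrays, 0.0544 to 0.143, and 0.0579 with line as a block), JAZ3 (6 arrays, 0.0525 to 0.125), ACO1 (OsYHB red replicate 1 or OsYHB dark replicate 2 or WT red replicate 2, 0.0569 to 0.0693), CKX5 (5 arrays, 0.0576 to 0.124), LOGL10 (5 arrays, 0.0555 to 0.0885), LOG (OsYHB red replicate 1 or OsYHB red replicate 2 or WT red replicate 2, 0.0516 to 0.0795) and IAA14 (OsYHB red replicate 1 or OsYHB dark replicate 2 or WT red replicate 2, 0.0635 to 0.0823).

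Expansins, which loosen walls of growing cells, and xyloglucan enzymes gave 4 calls of 26, all positive (15.4%, against 2.87% of all genes called positive), and the list had the highest median interaction of the lists at 0.40. EXP1 had log2 intensities of 5.48 and 5.09 in OsYHB red, 5.31 and 4.74 in OsYHB dark, 5.58 and 5.49 in WT red and 8.47 and 8.48 in WT dark. Its interaction was 3.2 ± 0.28 (SE, adjusted p = 0.0012). EXP8 had log2 intensities of 2.83 and 2.74 in OsYHB red, 3.05 and 2.68 in OsYHB dark, 2.87 and 2.81 in WT red and 5.0 and 5.29 in WT dark. Its interaction was 2.23 ± 0.22 (SE, adjusted p = 0.00189), and 6 of its arrays were below the array median. EXPB6 had an interaction of 1.71 ± 0.37 (SE, adjusted p = 0.0435) and EXPB11 had 1.33 on the same scale. Of 43 cellulose and wall matrix genes 2 were called, both positive (4.65%, near the 2.87% of all genes). PMEI8, an inhibitor of pectin methylesterases, had log2 intensities of 6.65 and 6.21 in OsYHB red, 7.84 and 8.52 in OsYHB dark, 6.84 and 7.16 in WT red and 10.93 and 11.42 in WT dark. Its responses were -1.75 in OsYHB and -4.17 in WT, and its interaction was 2.42 ± 0.38 (SE, adjusted p = 0.0116). The cellulose synthase-like gene CSLE2 had an interaction of 0.79 ± 0.15 (SE, adjusted p = 0.0274). Of 68 cell division genes 2 were called positive, CYCP2-1, a cyclin, with an interaction of 1.03 ± 0.2 (SE, adjusted p = 0.0288) and ORC1, of the origin recognition complex, with an interaction of 0.98 ± 0.22 (SE, adjusted p = 0.0465). Their share of 2.94% lay near the 2.87% of all genes called positive. Single arrays ended, in adjusted p, the calls of EXPB6 (6 arrays, 0.0669 to 0.151, and 0.0706 with line as a block), PMEI8 (WT red replicate 1, 0.0531), CSLE2 (6 arrays, 0.0641 to 0.127), CYCP2-1 (6 arrays, 0.0526 to 0.133) and ORC1 (7 arrays, 0.0676 to 0.19, and 0.0752 with line as a block).

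Homeobox genes of the KNOX class I, which in rice mark the shoot meristem and undifferentiated tissue, held 3 of the 15 largest positive interactions among genes with a name. OSH1 had log2 intensities of 2.54 and 3.23 in OsYHB red, 3.22 and 2.63 in OsYHB dark, 3.31 and 2.2 in WT red and 7.5 and 6.9 in WT dark. OSH71 had log2 intensities of 3.28 and 3.7 in OsYHB red, 3.58 and 3.12 in OsYHB dark, 3.74 and 3.5 in WT red and 8.43 and 6.75 in WT dark. OSH6 had log2 intensities of 3.97 and 3.89 in OsYHB red, 3.51 and 3.43 in OsYHB dark, 3.54 and 3.26 in WT red and 6.68 and 5.34 in WT dark. In each of the 3 genes the 6 other arrays lay below the array medians of 4.35 to 4.39 and the WT dark arrays above them. The interactions were 4.4 ± 0.56 (SE, adjusted p = 0.00482) for OSH1, 4.1 ± 0.65 (SE, adjusted p = 0.0122) for OSH71 and 3.07 ± 0.5 (SE, adjusted p = 0.014) for OSH6. The offset of 16 ended the calls of OSH71, at 2.95 (adjusted p = 0.0636), and OSH6, at 1.83 (0.0809), and with the offset of 64 they were 1.81 (0.163) and 0.90 (0.19). Of 6 other homeobox genes of the OSH and HOS series, looked up after these values were seen, HOS59 was called at an interaction of -1.15 ± 0.23 (SE, adjusted p = 0.0313), and OSH45 (-0.56), HOS58 (-0.13), HOS66 (0.12), OSH43 (0.22) and HOS13 (0.36) were not. In adjusted p, the calls of OSH71 (OsYHB dark replicate 2 or WT red replicate 2, 0.0647 to 0.0739), OSH6 (OsYHB dark replicate 2 or WT red replicate 2, 0.0673 to 0.0823) and HOS59 (6 arrays, 0.0533 to 0.147) were lost without single arrays.

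Surface, transport and signalling genes were also among the largest positive interactions. ABCG45, an ABC transporter of the pleiotropic drug resistance type, had log2 intensities of 4.63 and 4.79 in OsYHB red, 4.87 and 4.15 in OsYHB dark, 4.71 and 3.99 in WT red and 8.58 and 8.49 in WT dark. Its interaction was 4.39 ± 0.39 (SE, adjusted p = 0.0012). LTP-2, a lipid transfer protein, had log2 intensities of 3.55 and 3.74 in OsYHB red, 4.0 and 4.15 in OsYHB dark, 4.0 and 4.04 in WT red and 7.96 and 8.01 in WT dark. Its interaction was 3.53 ± 0.17 (SE, adjusted p = 0.000249). The 6 other arrays of LTP-2 spanned 3.55 to 4.15, all below both WT dark arrays. OsCASPL1D1, a membrane protein related to the Casparian strip proteins, had an interaction of 3.52 ± 0.53 (SE, adjusted p = 0.0103). PSK2, a precursor of the growth peptide phytosulfokine, had log2 intensities of 8.16 and 7.98 in OsYHB red, 8.05 and 7.23 in OsYHB dark, 8.29 and 7.49 in WT red and 10.88 and 10.9 in WT dark. Its interaction was 3.42 ± 0.43 (SE, adjusted p = 0.00459). The metallothionein gene MT-1-4b had an interaction of 4.1 ± 0.29 (SE, adjusted p = 0.00063), with responses of 0.95 in OsYHB and -3.15 in WT. ADC2, an arginine decarboxylase of polyamine synthesis, had an interaction of 3.32 ± 0.36 (SE, adjusted p = 0.00236). The call of OsCASPL1D1 was lost without WT red replicate 2, at an adjusted p of 0.0657.

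Stress genes were called in both directions. Heat shock genes gave 8 positive and 3 negative calls of 47 (23.4%, against 7.83% of all genes), with a list median of 0.13. HSP16.9A, a small heat shock protein, had log2 intensities of 5.07 and 5.41 in OsYHB red, 5.22 and 5.08 in OsYHB dark, 5.59 and 5.48 in WT red and 8.21 and 8.02 in WT dark. Its interaction was 2.67 ± 0.21 (SE, adjusted p = 0.000893). CLPB1, a chaperone that dissolves protein aggregates, and the heat shock factor HSFC1A had interactions of 2.62 ± 0.32 (SE, adjusted p = 0.00414) and 2.25 ± 0.2 (SE, adjusted p = 0.0013). Positive calls were also made for hsp17.9 (1.38), HSP18.6 (1.33), HSP23.2 (1.49), HSP16.9B (1.23) and HSFA2B (1.29). HSFA2A and HSP18.8 were negative at interactions of -1.59 ± 0.24 (SE, adjusted p = 0.00922) and -1.28 ± 0.22 (SE, adjusted p = 0.016), and the third negative gene, HSP24.1, is described with the OsYHB dark pattern. Small heat shock genes are alike in sequence, and how far their probe sets share signal was not tested.

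Defence and oxidative genes gave 5 positive and 4 negative calls of 65 (13.8%, against 7.83% of all genes). GER2 and GER1, germin-like proteins of the cell wall and near-identical neighbours whose signals cannot be told apart with certainty, had interactions of 3.22 ± 0.39 (SE, adjusted p = 0.00406) and 3.11 ± 0.56 (SE, adjusted p = 0.0201). GER2 had log2 intensities of 9.44 and 10.13 in OsYHB red, 10.16 and 9.63 in OsYHB dark, 9.93 and 9.38 in WT red and 13.08 and 12.88 in WT dark. Cht9, a chitinase, had an interaction of 3.33 ± 0.59 (SE, adjusted p = 0.0194), whereas Cht11, another chitinase, had the opposite sign at an interaction of -2.86 ± 0.63 (SE, adjusted p = 0.0432). The responses of Cht11 were 1.41 in OsYHB and 4.27 in WT, the WT response alone being called. BURP16, a BURP domain protein, had log2 intensities of 10.73 and 11.65 in OsYHB red, 10.49 and 8.78 in OsYHB dark, 11.96 and 12.17 in WT red and 7.58 and 6.97 in WT dark. Its interaction was -3.23 ± 0.73 (SE, adjusted p = 0.0482). GST-I (1.30) and RIXI (1.35) were positive and APX4 (-0.70) was negative. Of 19 dehydrin and late embryogenesis genes 3 were positive (15.8%, against 2.87% of all genes). PXG, a peroxygenase, had an interaction of 1.96 ± 0.35 (SE, adjusted p = 0.0205). The salt-induced lectin salT had an interaction of 1.65 ± 0.36 (SE, adjusted p = 0.0418) and Dhn1, a dehydrin, had an interaction of 1.0 ± 0.2 (SE, adjusted p = 0.0296). PXG was also the 1 call among the 12 seed markers. Of 29 phenylpropanoid genes 1 was positive and 2 were negative (10.3%, near the 7.83% of all genes). The positive one was CAD6, of the family that makes lignin alcohols, with an interaction of 1.68 ± 0.28 (SE, adjusted p = 0.0142). The negative ones were 4CL2, a coumarate-CoA ligase, with an interaction of -1.18 ± 0.2 (SE, adjusted p = 0.0161), and LAC20. None of 6 WRKY genes was called, the largest interaction being that of WRKY62, at -1.29 ± 0.82 (SE, adjusted p = 0.433). Single arrays ended, in adjusted p, the calls of HSP18.8 (4 arrays, 0.057 to 0.0875), GER1 (4 arrays, 0.051 to 0.0946), Cht9 (4 arrays, 0.0614 to 0.0888), Cht11 (6 arrays, 0.0532 to 0.143), BURP16 (7 arrays, 0.0611 to 0.189, and 0.0675 with line as a block), PXG (5 arrays, 0.0533 to 0.0785), salT (6 arrays, 0.0531 to 0.163, and 0.0654 with line as a block), Dhn1 (6 arrays, 0.0798 to 0.121, and 0.0521 with line as a block), CAD6 (OsYHB red replicate 2 or OsYHB dark replicate 2, 0.0591 to 0.0676) and 4CL2 (5 arrays, 0.05 to 0.08).

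A minority of called genes differed from the common pattern, and the genes of these patterns other than NAS1, NAS2, NAAT1, AMY3D, HSP24.1, LAC20 and ORC1 were chosen after their values were seen. In the first, WT red stood apart. Nicotianamine synthases make the chelator from which grasses build the phytosiderophores that take up iron. NAS2 had log2 intensities of 4.08 and 3.87 in OsYHB red, 4.05 and 3.89 in OsYHB dark, 8.26 and 8.95 in WT red and 5.16 and 3.86 in WT dark. Its responses were 0.0 in OsYHB and 4.09 in WT. It spanned 3.87 to 4.08 on the OsYHB arrays, was lower in OsYHB red than in WT red by 4.63 (adjusted p = 0.0219), and its interaction was -4.09 ± 0.54 (SE, adjusted p = 0.00567). NAS1, its near-identical neighbour, had log2 intensities of 4.05 and 3.14 in OsYHB red, 3.36 and 3.74 in OsYHB dark, 8.73 and 9.56 in WT red and 5.64 and 3.25 in WT dark. Its interaction was -4.66 ± 0.96 (SE, adjusted p = 0.0344). NAAT1, a nicotianamine aminotransferase of the same pathway, had log2 intensities of 6.37 and 6.56 in OsYHB red, 5.61 and 6.07 in OsYHB dark, 7.78 and 8.4 in WT red and 4.75 and 3.94 in WT dark. Both OsYHB groups lay between WT red and WT dark, and the interaction was -3.13 ± 0.42 (SE, adjusted p = 0.00617). Unlike NAS1 and NAS2, NAAT1 was also called higher in OsYHB dark than in WT dark, by 1.5 (adjusted p = 0.0122). By its calls it thus belonged to the common pattern, with the WT dark arrays below the other 6, although WT red also stood apart. These 3 were the calls among 41 iron genes (7.32%, all negative, against 4.97% of all genes called negative). The median response of the iron genes was 0.16 in OsYHB and 0.13 in WT. LOC4351985, which has no name, had log2 intensities of 3.86 and 2.77 in OsYHB red, 2.77 and 2.89 in OsYHB dark, 6.63 and 8.66 in WT red and 2.51 and 2.66 in WT dark. Its interaction was -4.58 ± 0.82 (SE, adjusted p = 0.0201). LOC4331496, also unnamed, had log2 intensities of 4.55 and 4.71 in OsYHB red, 3.91 and 3.36 in OsYHB dark, 7.62 and 7.59 in WT red and 5.33 and 4.66 in WT dark. Its interaction was -1.62 ± 0.34 (SE, adjusted p = 0.0376). It was lower in OsYHB both in red light (-2.98, adjusted p = 0.0219) and in darkness. It was the single gene called in both WT light and the dark genotype comparison with different signs in them. In adjusted p, single arrays ended the calls of NAS1 (6 arrays, 0.0609 to 0.16, and 0.055 with line as a block), LOC4351985 (OsYHB red replicate 2 or OsYHB dark replicate 1 or OsYHB dark replicate 2, 0.0629 to 0.0885) and LOC4331496 (5 arrays, 0.0949 to 0.147, and 0.0549 with line as a block).

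**Figure D4:**
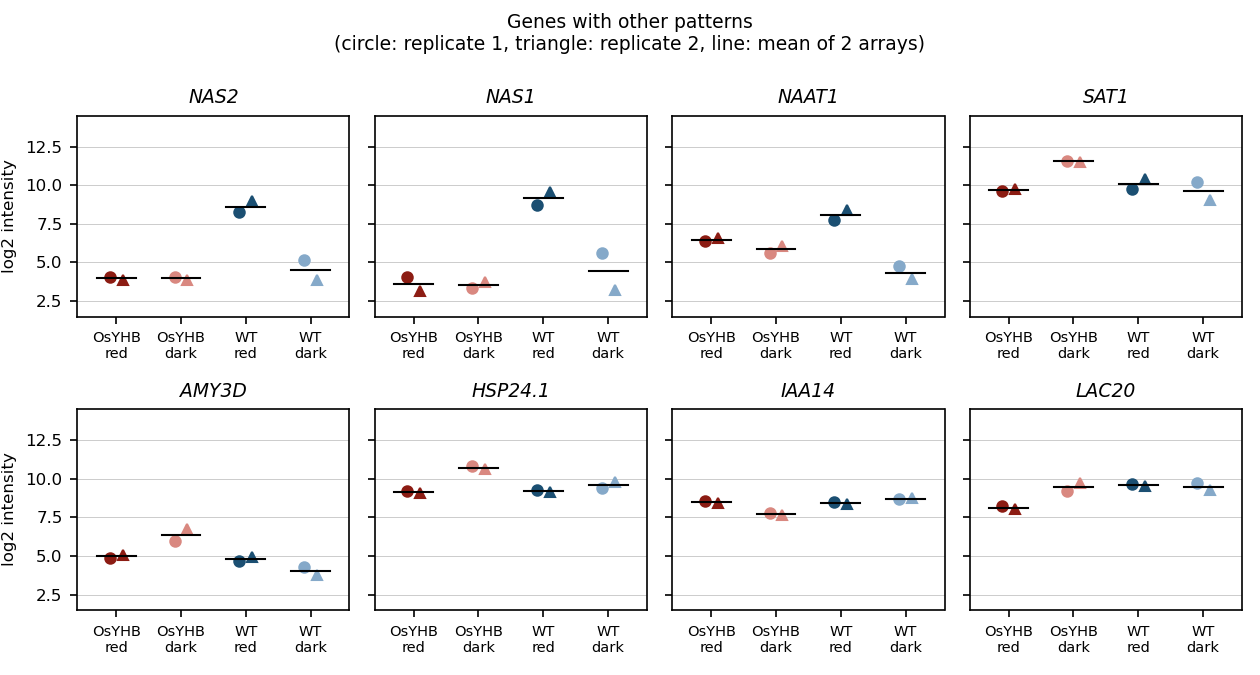
Log2 intensity on each of the 8 arrays for genes with the less common patterns, each gene in its own panel, with groups from left to right OsYHB red, OsYHB dark, WT red and WT dark, circles for replicate 1, triangles for replicate 2 and short lines for group means. NAS1 and NAS2 are high in WT red, while SAT1 and HSP24.1 are highest in OsYHB dark. NAAT1 is highest in WT red and also lowest in WT dark, as in the common pattern.

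In the second pattern OsYHB dark was highest or lowest. Of the 1402 called genes, 44 negative and 86 positive ones were called in the dark genotype comparison and not in WT light. The OsYHB dark arrays lay apart from the other 6 in 122 of these 130 genes. They lay apart in 539 of the 1402 called genes (38.4%) and in 23.3% of all genes, so this was not particular to the 130. Both the interaction and the dark genotype comparison use the OsYHB dark arrays, so the choice of these genes favours OsYHB dark lying apart. In 72 of the 122 genes the WT dark arrays also lay apart, on the other side. Over all genes the WT dark arrays lay apart in 42.8%. HSP24.1, a small heat shock protein, had log2 intensities of 9.23 and 9.07 in OsYHB red, 10.8 and 10.63 in OsYHB dark, 9.28 and 9.13 in WT red and 9.41 and 9.75 in WT dark. Its responses were -1.57 in OsYHB (adjusted p = 0.0457) and -0.37 in WT (adjusted p = 0.179). Its interaction was -1.2 ± 0.21 (SE, adjusted p = 0.0196), and the other 3 groups spanned 9.07 to 9.75. LOC4334726 had log2 intensities of 4.29 and 4.19 in OsYHB red, 5.73 and 5.92 in OsYHB dark, 4.83 and 4.45 in WT red and 4.52 and 4.6 in WT dark. Its OsYHB response was -1.59 (adjusted p = 0.0457), and its interaction was -1.67 ± 0.21 (SE, adjusted p = 0.00482). SAT1, a serine acetyltransferase of cysteine synthesis, had log2 intensities of 9.62 and 9.75 in OsYHB red, 11.58 and 11.53 in OsYHB dark, 9.76 and 10.38 in WT red and 10.22 and 9.06 in WT dark. Its interaction was -2.3 ± 0.49 (SE, adjusted p = 0.038), but a second probe set gave 0.85, and the mean of both gave -0.73 (adjusted p = 0.319), which ended the call. AMY3D, an alpha-amylase that sugar starvation raises in rice cells, had log2 intensities of 4.89 and 5.04 in OsYHB red, 5.95 and 6.71 in OsYHB dark, 4.64 and 4.96 in WT red and 4.26 and 3.77 in WT dark. Its interaction was -2.15 ± 0.37 (SE, adjusted p = 0.0172). IAA14 had log2 intensities of 8.54 and 8.42 in OsYHB red, 7.8 and 7.67 in OsYHB dark, 8.5 and 8.39 in WT red and 8.66 and 8.76 in WT dark. ORC1 had log2 intensities of 6.84 and 6.97 in OsYHB red, 6.15 and 5.93 in OsYHB dark, 6.74 and 6.59 in WT red and 6.61 and 6.96 in WT dark. Both were lowest in OsYHB dark, and in IAA14 and AMY3D the WT dark arrays also lay apart from the rest, on the other side. LOC4335518 had log2 intensities of 7.73 and 8.6 in OsYHB red, 10.36 and 10.13 in OsYHB dark, 9.03 and 8.84 in WT red and 7.99 and 6.91 in WT dark. Its responses were of opposite sign, -2.08 in OsYHB and 1.48 in WT, and its interaction was -3.56 ± 0.52 (SE, adjusted p = 0.00831). Its response in OsYHB was not called, at an adjusted p of 0.108. LOC4335518 was called in WT light as well as in the dark genotype comparison. By its calls it thus belonged to the common pattern, although OsYHB dark was highest. The calls that single arrays ended, in adjusted p, were those of HSP24.1 (5 arrays, 0.0592 to 0.0816), SAT1 (6 arrays, 0.0595 to 0.164, and 0.0622 with line as a block), AMY3D (OsYHB red replicate 1 or OsYHB red replicate 2 or WT red replicate 2, 0.0534 to 0.0946) and ORC1 (7 arrays, 0.0676 to 0.19, and 0.0752 with line as a block).

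Few calls were made for light in OsYHB itself. With line as a block 14 probe sets were called there, against 6 without it. For OsYHB against WT in red light the counts were 25 with the block and 11 without it, and in darkness 6061 with it and 9715 without it. The 3 genes among the 6 were HSP24.1, LOC4334726 and LOC4339012. LOC4339012 was lower in red light in both genotypes, with log2 intensities of 6.86 and 6.8 in OsYHB red, 8.17 and 8.18 in OsYHB dark, 7.11 and 7.27 in WT red and 9.08 and 9.1 in WT dark. Its interaction was 0.55 ± 0.16 (SE, adjusted p = 0.102). Of 3 probe sets with no gene, Os.12430.1.S1_at had log2 intensities of 10.37 and 9.31 in OsYHB red, 4.79 and 5.26 in OsYHB dark, 11.64 and 12.17 in WT red and 3.2 and 4.22 in WT dark. Its response was 4.81 in OsYHB and larger in WT. Its interaction of -3.37 (adjusted p = 0.0179) was lost without OsYHB dark replicate 2 or WT red replicate 2 (adjusted p = 0.0861 to 0.0983). Os.12629.1.S1_at had log2 intensities of 11.94 and 10.91 in OsYHB red, 7.19 and 7.05 in OsYHB dark, 12.42 and 12.76 in WT red and 6.96 and 7.09 in WT dark. Its interaction was not called, at -1.27 (adjusted p = 0.138). OsAffx.27098.1.S1_at had log2 intensities of 9.09 and 8.86 in OsYHB red, 10.42 and 10.69 in OsYHB dark, 8.52 and 8.56 in WT red and 7.26 and 7.17 in WT dark. Its response was -1.58 in OsYHB, and its interaction was -2.90 (adjusted p = 0.00054). LOC9268400 was the 1 called gene whose OsYHB response had the WT sign, was smaller and exceeded 50% of that in WT, with log2 intensities of 3.34 and 3.25 in OsYHB red, 7.26 and 6.48 in OsYHB dark, 6.58 and 4.99 in WT red and 12.52 and 12.21 in WT dark. Its responses were -3.58 in OsYHB and -6.58 in WT, and its interaction was 3.0 ± 0.65 (SE, adjusted p = 0.0408), lost without any of 7 arrays in turn (adjusted p = 0.0573 to 0.152) and with line as a block (0.0547).

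In 4 called genes neither the WT light response nor the dark genotype difference was called. LAC20, a laccase of the family that polymerises lignin, was lowest in OsYHB red, with log2 intensities of 8.21 and 8.04 in OsYHB red, 9.21 and 9.69 in OsYHB dark, 9.63 and 9.51 in WT red and 9.69 and 9.25 in WT dark. Its interaction was -1.42 ± 0.28 (SE, adjusted p = 0.0296), and the other 6 arrays spanned 9.21 to 9.69. LOC4333470 and LOC4346676 were highest in OsYHB dark, with interactions of -0.9 ± 0.19 (SE, adjusted p = 0.0366) and -0.7 ± 0.16 (SE, adjusted p = 0.0473), and the dim LOC4326396 was lowest there, with an interaction of 1.08 ± 0.21 (SE, adjusted p = 0.029). In 3 genes of positive interaction only the WT light response was called, OsVP1 (0.75), LOC4334914 (0.81) and LOC4338575 (0.98), all under 1 in size. Single arrays ended, in adjusted p, the calls of LAC20 (5 arrays, 0.07 to 0.111), LOC4333470 (7 arrays, 0.0571 to 0.145, and 0.0595 with line as a block), LOC4346676 (8 arrays, 0.0547 to 0.186, and 0.0768 with line as a block), LOC4326396 (6 arrays, 0.0593 to 0.102), OsVP1 (7 arrays, 0.0534 to 0.121, and 0.0615 with line as a block), LOC4334914 (7 arrays, 0.0701 to 0.178, and 0.0595 with line as a block) and LOC4338575 (7 arrays, 0.0586 to 0.157, and 0.0628 with line as a block).

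Loci with no name and probe sets with no gene also held large interactions. LOC4328842 had log2 intensities of 11.61 and 11.67 in OsYHB red, 11 and 11.29 in OsYHB dark, 11.13 and 10.77 in WT red and 4.76 and 3.09 in WT dark. Its interaction was -6.53 ± 0.62 (SE, adjusted p = 0.00154). LOC4346837 had log2 intensities of 8.87 and 9.42 in OsYHB red, 8.95 and 9.17 in OsYHB dark, 9.4 and 8.88 in WT red and 2.91 and 2.68 in WT dark. Its interaction was -6.27 ± 0.32 (SE, adjusted p = 0.000249). On the positive side LOC4330226 had log2 intensities of 6.07 and 5.95 in OsYHB red, 5.74 and 5.1 in OsYHB dark, 6.07 and 4.99 in WT red and 11.57 and 10.29 in WT dark. Its interaction was 5.99 ± 0.64 (SE, adjusted p = 0.00237), though a dimmer probe set of the same locus gave 0.73. LOC4350386 had an interaction of 5.0 ± 0.5 (SE, adjusted p = 0.00185). Of the probe sets with no gene, Os.8655.1.S1_at had log2 intensities of 2.35 and 2.26 in OsYHB red, 2.83 and 2.83 in OsYHB dark, 2.07 and 2.32 in WT red and 11.85 and 11.12 in WT dark. Its interaction was the largest of the probe sets with no gene, at an interaction of 8.77 ± 0.31 (SE, adjusted p = 8.44e-05). Os.6832.1.S1_at followed with an interaction of 8.14 ± 0.45 (SE, adjusted p = 0.000291), and Os.17697.1.A1_at and OsAffx.13994.1.S1_at were the lowest at interactions of -7.06 ± 0.35 (SE, adjusted p = 0.000249) and -4.81 ± 0.99 (SE, adjusted p = 0.0347). The WT dark arrays were the ones apart in these loci and probe sets except OsAffx.13994.1.S1_at, which had log2 intensities of 2.58 and 2.32 in OsYHB red, 5.68 and 7.45 in OsYHB dark, 4.19 and 5.47 in WT red and 5.02 and 3.25 in WT dark. Its call was lost without any of 6 arrays in turn (adjusted p = 0.0567 to 0.155).

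With line 1 as the only OsYHB line 172 probe sets were called and with line 9 only 500, against 2414 with both. Of the 106 called genes, loci and probe sets followed by name, line 1 alone ended 87 calls and line 9 alone 67. Both single-line fits use the same 4 WT arrays. The light responses of the lines differed by a median of 0.25 in size over the 2414 called probe sets, against a median interaction of 1.37, and calling favours probe sets whose lines differ little. Of the 2414 calls, 716 (450 genes) held in every fit that left out 1 array. Of the 106 calls followed by name, 49 held in every such fit. Leaving out WT red replicate 2 ended 50 of these calls, OsYHB dark replicate 2 ended 47, OsYHB red replicates 1 and 2 ended 41 and 43, WT red replicate 1 ended 35, OsYHB dark replicate 1 ended 30, and WT dark replicates 1 and 2 ended 18 and 11. None changed sign in any of these fits.

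Part of the calls depended on the offset. With log2(intensity + 16) 19 of the 106 calls were lost (adjusted p = 0.0504 to 0.12), those of OSH71, GER1, OSH6, BURP16, Cht11, DTH8, OPR5, salT, EXPB6, LAC20, TIP1, ORC1, MADS2, AMY3D, SAT1, LOC4326396, LOC4351985, OsVP1 and OsAffx.13994.1.S1_at. With log2(intensity + 64) these and 21 more were lost (adjusted p = 0.0509 to 0.282 over the 40), those of GH3.2, OsCASPL1D1, Cht9, BGLU22, MADS56, CIPK5, CLA1, JAZ3, PXG, Dhn1, CLPB1, CYCP2-1, CIN4, SWEET2B, LOGL10, CKX5, LOG, LOC4333470, LOC4338575, HOS59 and Os.12430.1.S1_at. BGLU22 was -1.55, MADS56 -1.29 and CLPB1 0.90 with the offset of 64.

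Probe sets of the same gene did not always give the same value, and the values above are those of the brightest. Besides SAT1, CHLH and GLO1, a second probe set had the opposite sign for LOG (0.15). The smallest value in size among the probe sets of a gene was -0.41 for NIA1, -0.19 for RIBA3, -0.92 for MSRB1, -0.43 for PSY1, -0.32 for CLA1, -0.06 for HSFA2A, -0.17 for AMY3D, 0.29 for OPR5 and 0.0 for Dhn1. Besides that of SAT1, averaging the probe sets of a gene ended the calls of CLA1 (-0.73, adjusted p = 0.0587), PRR37 (-0.80, 0.0977), OPR5 (1.53, 0.066), Dhn1 (0.88, 0.0701) and AMY3D (-1.16, 0.0531).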

How the data were processed

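Affymetrix rice arrays were hybridised with biotinylated RNA prepared with a 3' in vitro transcription kit, per the labels' protocols. The deposited values are linear intensities, 1 per probe set and array; the submitters' processing notes name GCOS, RMA and limma without roles or versions, and how background, normalization and summarisation were handled was not given in the sources used here. No detection calls were used, so values near or below the array median (log2 4.35 to 4.39) are not known to lie above background: 182 of the 1402 called genes had at least 1 group there. All 57381 probe sets except 123 control ones were taken to log2 with no further normalization. limma 3.58.1 in R 4.3.3 was fitted to the 4 groups of 2 arrays (lmFit, eBayes; 4 residual and 4.27 prior degrees of freedom), and p-values were adjusted by Benjamini-Hochberg over 57258 probe sets, with calls below 0.05. Tables and figures were made with Python 3.11.15, pandas 2.3.3 and matplotlib 3.10.9. Precision is limited by the number of arrays. The script was tested on simulated data.

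The probe annotation gave 1 gene to 22436 probe sets, several to 95 and none to 34727, and a gene was represented by its brightest probe set. Of 17905 genes, 2458 had a name, from that annotation or from RefSeq synonyms (ASM3414082v1) matched by gene ID. This differs from the plan to use the annotation alone, which holds mostly locus numbers, and members whose RefSeq identity differed were removed before interaction values were seen. The lists held 742 genes. The members and lists were chosen with earlier results of these data known. Named genes were the 15 largest called interactions in each direction, up to 3 called members of each list in each direction or else the largest one, the 2 largest unnamed loci and probe sets in each direction, and the phytochromes. PSAH, RCABP89, CAB2R, GDCSH, rca, GLN2 and other list members beyond 3 per direction, HOS59 and the rarer patterns were added after values were seen. The calls of PSAH, RCABP89, GDCSH, GLN2, SWEET1B, SWEET16, EXPB11, ARF16, PIN3A, GST-I, RIXI and APX4 were not followed in the alternative fits. Nor were those of the Aux/IAA and heat shock genes given without SE, apart from IAA14. Whether single arrays ended these calls was not examined.

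Replicates are labelled as biological. Replicate numbers pair arrays by transgenic line in OsYHB (correlation of deviations 0.145) and by number alone in WT (0.093). Alternatives were the offset, scaling, filters on dim probe sets, variance settings, blocks, single lines and leaving out each array. A planned search of promoters for motifs was not made, as promoter sequence was not used here.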

Additional observations from a re-analysis of the deposited data

Results flagged for a closer look

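The results named here are those in which the effect of red light differed between OsYHB and WT by the test of the interaction itself, as a log2 difference between the responses. The test called 878 probe sets with a positive and 1536 with a negative interaction, which is the outcome of the comparison as a whole. With 2 arrays a group, no search for a deviating array within a group was made, and every array was used in the comparisons.

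Positive interactions of the largest size were those of Os.8655.1.S1_at (8.77), Os.6832.1.S1_at (8.14), ILL3 (6.53), LOC4330226 (5.99), LOC4350386 (5.00), OSH1 (4.40), ABCG45 (4.39), GH3.2 (4.16), OSH71 (4.10), MT-1-4b (4.10), LTP-2 (3.53), OsCASPL1D1 (3.52), PSK2 (3.42), Cht9 (3.33), ADC2 (3.32), GER2 (3.22), EXP1 (3.2), GER1 (3.11), OSH6 (3.07) and LOC9268400 (3.0). Those of middle size were IAA20 (2.81), OPR5 (2.78), HSP16.9A (2.67), CLPB1 (2.62), PMEI8 (2.42), HSFC1A (2.25), EXP8 (2.23), TIP1 (2.23), AOS4 (2.15), PXG (1.96), EXPB6 (1.71), CAD6 (1.68), salT (1.65) and MADS2 (1.55). The smallest were LOGL10 (1.47), ACO1 (1.46), CKX5 (1.34), JAZ3 (1.14), PHYA (1.09), LOC4326396 (1.08), CYCP2-1 (1.03), IAA14 (1.01), Dhn1 (1.00), ORC1 (0.98), LOC4338575 (0.98), LOC4334914 (0.81), CSLE2 (0.79) and OsVP1 (0.75).

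Negative interactions of the largest size were those of Os.17697.1.A1_at (-7.06), LOC4328842 (-6.53), LOC4346837 (-6.27), OsAffx.13994.1.S1_at (-4.81), PDX12 (-4.73), NAS1 (-4.66), LOC4351985 (-4.58), CFBP1 (-4.12), NAS2 (-4.09), BGLU22 (-3.99), LOC4335518 (-3.56), Os.12430.1.S1_at (-3.37), MADS56 (-3.27), BURP16 (-3.23), NIA1 (-3.20), RIBA3 (-3.17), NAAT1 (-3.13) and PIP2-7 (-3.08). Those of middle size were GLO5 (-2.98), OsAffx.27098.1.S1_at (-2.90), Cht11 (-2.86), CIPK5 (-2.54), MSRB1 (-2.42), GLO1 (-2.39), SAT1 (-2.30), PSY2 (-2.24), RCABP69 (-2.19), AMT2-1 (-2.15), AMY3D (-2.15), LFNR1 (-2.02), Fd-GOGAT (-1.95), CHLH (-1.90), Lls1 (-1.77), APX8 (-1.72), ndhM (-1.68), LOC4334726 (-1.67), CIN4 (-1.65), LOC4331496 (-1.62), HSFA2A (-1.59) and CRYD (-1.57). The smallest were GluTR (-1.48), LOG (-1.45), LAC20 (-1.42), PSY1 (-1.38), rca (-1.34), HSP18.8 (-1.28), SWEET2B (-1.28), HSP24.1 (-1.20), 4CL2 (-1.18), HOS59 (-1.15), CLA1 (-1.14), PHOT2 (-1.13), MADS50 (-1.07), NYC1 (-1.03), DTH8 (-1.02), CAB2R (-1.01), LOC4333470 (-0.90), PRR37 (-0.74) and LOC4346676 (-0.70).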

How the results depend on the processing

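In every alternative run, none of the 106 called genes, loci and probe sets followed by name changed sign, while the number of calls moved. Probe sets called in the interaction were 172 with line 1 only (36 positive, 136 negative) and 500 with line 9 only (112 and 388), and 809 to 3304 when 1 array was left out (225 to 1488 positive, 584 to 1816 negative); where an array is left out, or a line used alone, the lone array is assumed to vary like the other groups. Positive calls were 1403 on log2(intensity + 16) and 1424 with a mean log2 intensity of at least 5, and negative calls were 1012 with the probe sets of a gene averaged. Red light against dark in OsYHB gave 0 calls with either offset, 3 and 48 with a mean of at least 5 and 7, 45 with a trended and 28 with a robust variance, 65 with array weights, 0 with 1 probe set per gene, 1 with probe sets averaged, 2 with a replicate block, 14 with a block for line, 0 and 17 with line 1 and line 9 only, and 0 to 94 with 1 array left out. OsYHB against WT in red light gave 1 call with either offset, 6 and 1 with a mean of at least 5 and 7, 44 with array weights, 0 with 1 probe set per gene or probe sets averaged, 18 with a replicate block, 25 with a block for line, and 1 to 40 with 1 array left out. Red light against dark in WT gave 3329 calls with either line alone and 2386 to 5900 with 1 array left out. OsYHB against WT in darkness gave 6105 calls with 1 probe set per gene, 5980 with probe sets averaged, 6061 with a block for line, 2144 and 3356 with line 1 and line 9 only, and 3647 to 9823 with 1 array left out. The fits with 1 probe set per gene or averaged probe sets test fewer features; for the rest the cause was not tested. The replicate block, a pairing of arrays by number, gave 2083 interaction calls and the block for line 2003, against 2414, and ended 15 and 17 of the 106 named calls. The offsets of 16 and 64 ended 19 and 40 of them. Among uncalled genes, WRKY62 became 0.01 with line 9 only, PHYB -0.04 without OsYHB dark replicate 1 and -0.11 without WT dark replicate 1, and Lsi2, a root marker, became -0.19 without WT dark replicate 1; with single arrays left out PHYB reached 0.42 and Lsi2 1.48. Signal over background could not be judged for dim probe sets.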
